A study of Mus musculus with 4 samples.

Results

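Interferon-stimulated genes were followed in 4 mouse kidney sections profiled by Visium spatial transcriptomics. The members were 39 genes chosen by name as interferon-induced, out of 32285 genes listed in each count table. Counts were found for 37 of the 39, and Mx1 and Mx2 were not analysed here because neither their symbols nor their identifiers matched the tables. All 4 sections came from the left kidney of wild-type C57BL/6J male mice aged 7-8 weeks. Normal sections 1 and 2 were from control kidneys, and ischemic sections 1 and 2 were from kidneys removed 24 h after both kidneys had been made ischemic for 30 min. The control mice are not described as sham-operated, so the effect of surgery and anaesthesia and that of ischemia cannot be told apart. Kidneys were snap-frozen after removal of the capsule and cut at 10 µm. No label names the mouse behind a section, and the study describes technical replicates of each mouse, so p-values measure the spread between sections, which may be technical.

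Interferons are cytokines released on sensing of virus, foreign or misplaced nucleic acid, or by activated lymphocytes. Type I interferons signal through IFNAR1 and IFNAR2 to the kinases JAK1 and TYK2 and a complex that holds STAT2 and IRF9, which binds the interferon-stimulated response element (ISRE) near its targets. Interferon gamma, made mainly by T and NK cells, signals through IFNGR1 and IFNGR2 to factors that bind the gamma-activated site (GAS), and it is the chief inducer of Cxcl9, of many guanylate-binding proteins and of the immunoproteasome. In the kidney these genes are known to respond in resident macrophages, endothelium and tubule cells.

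The sequences that these factors read stand close to the start of many members. RefSeq promoter windows (GRCm38.p6, 250 bases before to 50 bases after a start) were found for 29 of the 39 members. The core of the ISRE, GAAA and GAAA with any 2 bases between, was found on either strand in 16 of the 29 members (55.2%) and in 1079 of 27025 genes with a window (3.99%). The core of the GAS, TTC and GAA with any 3 bases between, was found in 8 of 29 members (27.6%) and in 2582 of 27025 genes (9.55%). The motifs can overlap, as at Igtp. The stretches below belong to members whose values are described later, namely risers, fallers and 1 that did not pass the test. They lie upstream of the start, read 5′ to 3′ on the gene's strand, and the matched letters are in capitals, with TTTC in place of GAAA where the match is on the other strand.
Cxcl10 ISRE: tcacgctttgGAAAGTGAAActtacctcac
Ifit3 ISRE: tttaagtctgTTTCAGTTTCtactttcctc
Ifit3b ISRE: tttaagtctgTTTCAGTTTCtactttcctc
Gbp2 ISRE: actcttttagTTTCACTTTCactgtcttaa
Rsad2 ISRE: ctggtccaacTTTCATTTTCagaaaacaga
Igtp ISRE: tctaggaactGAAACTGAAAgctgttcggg
Igtp GAS: aactagccatTTCTAGGAActgaaactga
Irf1 GAS: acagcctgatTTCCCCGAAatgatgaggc
On GRCm38 the Cxcl10 stretch lies at chr5:92349083-92349112 on the minus strand, its match beginning 213 bases before the start. The Igtp matches lie at chr11:58199512-58199541 and chr11:58199501-58199529 on the plus strand, beginning 34 and 45 bases before the start. Ifit3 (chr19:34583397-34583426) and Ifit3b (chr19:34607793-34607822) carry the same letters, 122 and 154 bases before their starts. Ifit3 and Ifit3b are near-identical neighbours, so how reads were divided between them is uncertain. The stretches of Gbp2 (chr3:142620594-142620623, plus strand), Rsad2 (chr12:26456553-26456582, minus strand) and Irf1 (chr11:53769914-53769942, plus strand) have their matches 59, 120 and 90 bases before the start. The ISRE letters were present in the windows of 3 of 5 members that rose, 5 of 10 that fell and 8 of 14 that did neither, and the GAS letters in 0 of 5, 3 of 10 and 5 of 14. The ISRE letters thus stood before members of either direction.

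The sections held 44528078 and 27657481 UMIs (normal 1 and 2) and 31053530 and 25957128 UMIs (ischemic 1 and 2) over 10312 tissue spots. A UMI is 1 captured RNA molecule, and a spot is a small disc of tissue that can hold several cell types. Counts summed over a section were given as TMM-scaled CPM, that is, per 1e+06 counts, and marker lists as CPM of all UMIs without TMM scaling. The labels held against injury markers: Havcr1, Lcn2, Krt20 and Clu together were at 207 and 304 CPM in normal and at 8903 and 9799 CPM in ischemic sections. In these bulk sums fewer cells of a type and less RNA per cell cannot be told apart. Other cell types moved with the condition. The summed T cell markers (8 of 8 detected in every section) were at 16.6 and 32.7 CPM in normal and at 2.77 and 3.12 CPM in ischemic sections. NK cell markers were at 4.42 and 6.33 against 0.322 and 0.462 CPM, with 3 and 4 of 5 detected in the ischemic sections and Klre1 at 0 in both. In the normal sections Nkg7 alone held 156 of 197 and 146 of 175 counts of that list, and no other gene of it exceeded 22 counts. Endothelial markers were at 368 and 497 against 603 and 650 CPM. Within that list Kdr alone was lower in both ischemic sections (26.6 and 29.4 against 24.3 and 25.5 CPM), and Tie1 overlapped between conditions. Adipocyte markers were at 41.2 and 21.2 against 5.06 and 4.55 CPM. Neutrophil markers were at 1.41 and 2.17 against 177 and 178 CPM. Macrophage and monocyte markers summed to 157 and 220 against 158 and 159 CPM, but single genes of that list moved apart. Csf1r was at 42.6 and 41.8 against 13.7 and 12.8 CPM, and Cd68 at 3.48 and 4.99 against 23.5 and 24.4 CPM. The part of these shifts in the results below was not tested, except where values without the spots concerned are given.

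Over whole sections, the response of the interferon-stimulated genes to ischemia was divided. Of the 37 members tested, 5 rose, 12 fell and 20 did not pass the threshold (edgeR quasi-likelihood test, Benjamini-Hochberg adjusted p under 0.05 over 15305 genes). Among all genes tested 31.0% rose and 29.7% fell, so the 45.9% of members called was below the 60.6% of all genes. Their median log2 fold change was 0.08, against 0.04 over all genes. The CPM of the conditions did not overlap for 24 of the 37 members, against 82.2% of all genes. Single sections moved these counts. The shares of all genes called in the same refits are not given here. The counts below therefore show only that the calls depended on single sections. Without normal section 2, 15 rose and 11 fell, and without normal section 1 the counts were 6 and 18. Without ischemic section 1 they were 5 and 8, and without ischemic section 2 they were 4 and 9. The members that rose were Oasl1, Ifit3b, Ifit3, Irf9 and Cxcl10, and those that fell were led by Cxcl9, Ifi27l2a, Igtp, Psmb9, Gbp2 and Rsad2.

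**Figure D1:**
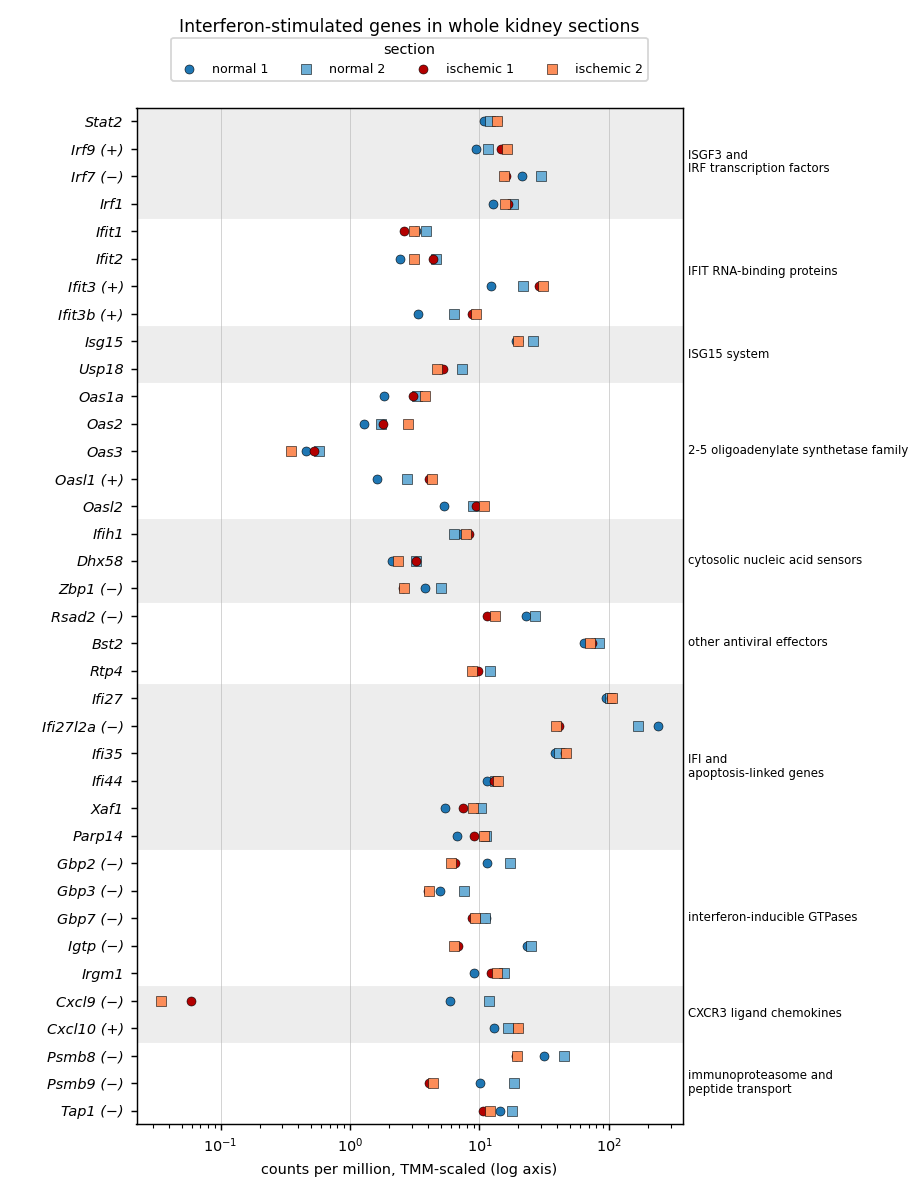
TMM-scaled counts per 1e+06 (log axis) of the 37 members in each of the 4 whole sections, grouped by role. Signs after a symbol mark genes past the threshold as higher (+) or lower (−) in ischemic sections; Cxcl9 is the only member under 0.1 CPM in the ischemic sections, while Ifi27 lies between 95.4 and 105 CPM in all 4.

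The transcription factors of the pathway split among themselves. Irf9, the DNA-binding subunit of the type I complex, was at 9.35 and 11.7 CPM in normal and at 14.7 and 16.2 CPM in ischemic sections, and rose by a log2 fold change of 0.56 (SE 0.13, edgeR adjusted p = 0.00545). Both ischemic sections were above both normal sections. Irf7, which amplifies type I interferon production, went the other way, from 21.1 and 29.8 CPM to 16.0 and 15.5 CPM, and its log2 fold change was -0.69 (SE 0.15). Stat2, with a log2 fold change of 0.25, and Irf1, with 0.08, did not pass the threshold.

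Among the RNA-binding IFIT proteins 2 of 4 rose, and in the oligoadenylate synthetase family 1 of 5, where 31.0% of all genes rose. Ifit3, which supports the binding of viral RNA by IFIT1, was at 12.2 and 21.6 CPM in normal and at 28.9 and 31.1 CPM in ischemic sections, with a log2 fold change of 0.84 (SE 0.21, edgeR adjusted p = 0.0073). Its near-copy Ifit3b was at 3.36 and 6.41 against 8.77 and 9.45 CPM, a log2 fold change of 0.92 (SE 0.25). For both genes the ischemic sections lay above the normal ones, although normal section 2 lay closer to them than normal section 1. Oasl1, a restrainer of Irf7 translation, was at 1.63 and 2.75 CPM in normal and at 4.09 and 4.33 CPM in ischemic sections, the largest rise among the members (log2 fold change 0.96, SE 0.26, edgeR adjusted p = 0.00986). Ifit1 at -0.31 and Ifit2 at 0.12 did not pass, nor did Oas1a, Oas2, Oas3 and Oasl2, whose log2 fold changes ran from -0.21 to 0.61. The Oas genes have close paralogs, so their counts share the uncertainty named for Ifit3. Neither gene of the ISG15 system passed: the ubiquitin-like modifier Isg15 had a log2 fold change of -0.18 and its protease Usp18 one of -0.31.

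Among sensors and antiviral effectors the calls were all downward. Rsad2, the antiviral enzyme viperin, was at 22.9 and 27.0 CPM in normal and at 11.3 and 13.2 CPM in ischemic sections, a log2 fold change of -1.02 (SE 0.12, edgeR adjusted p = 0.000105). The groups were well apart. Zbp1, a sensor of Z-form nucleic acid that can start necroptosis, fell by 0.76 on the log2 scale, and this call was lost without ischemic section 1 (edgeR adjusted p = 0.0726), without ischemic section 2 (0.0615) and without the lymphocyte-rich spots described further on (0.225). The RNA sensors Ifih1 and Dhx58 and the effectors Bst2 and Rtp4 did not pass the threshold. Bst2 (tetherin) was the second most abundant member that did not pass, at 64.5 and 83.8 against 74.6 and 71.7 CPM, with overlapping groups.

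The small IFI proteins gave the highest levels and a sharp contrast between neighbours. Ifi27 (chr12:103434211-103440239) was at 95.4 and 101 CPM in normal and at 103 and 105 CPM in ischemic sections, and did not pass (log2 fold change 0.09, SE 0.10). Ifi27l2a, its neighbour (chr12:103442167-103443680), was at 238 and 168 CPM in normal but at 41.1 and 39.2 CPM in ischemic sections, a log2 fold change of -2.34 (SE 0.17, edgeR adjusted p = 4.52e-06). No ischemic section came near a normal one. Ifi35, at 38.2 and 40.8 against 45.5 and 46.3 CPM, did not pass (edgeR adjusted p = 0.0677), nor did Ifi44, Xaf1 and Parp14.

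Much of the Ifi27l2a signal lay in a small patch of the normal sections. Spots were called adipocyte-rich where they and their neighbours held at least 5 counts of adipocyte markers, and there were 126 and 73 of them in normal and 3 and 8 in ischemic sections. They held 71.0% and 49.1% of the Ifi27l2a counts of normal sections 1 and 2, but 2.78% and 2.27% of all UMIs. Single spots there reached 410 and 370 counts of Ifi27l2a, against at most 9 and 7 in any spot of the ischemic sections. Without adipocyte-rich spots the log2 fold change of Ifi27l2a was -0.996 (SE 0.12), still past the threshold (edgeR adjusted p = 0.000118). Outside these spots the fall was thus smaller.

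The interferon-inducible GTPases, which coat and disrupt the vacuoles of intracellular microbes, fell in 4 of 5 cases, where 29.7% of all genes fell. Igtp, an immunity-related GTPase, was at 23.2 and 25.1 CPM in normal and at 6.83 and 6.31 CPM in ischemic sections (log2 fold change -1.88, SE 0.11, edgeR adjusted p = 1.37e-06). Gbp2 was at 11.5 and 17.1 against 6.45 and 6.07 CPM (log2 fold change -1.18, SE 0.19). In both genes every normal section was above every ischemic section. Igtp overlaps Irgm2 on the same strand, so reads of the overlap are uncertain. Gbp3 (log2 fold change -0.63) and Gbp7 (-0.31) also fell. Neither call held without either ischemic section (edgeR adjusted p = 0.11 and 0.0903 for Gbp3, 0.317 and 0.201 for Gbp7, without ischemic section 1 and 2 in turn), and that of Gbp3 did not hold without normal section 2 (edgeR adjusted p = 0.0824). Irgm1, a regulator of the family, was at 9.05 and 15.6 against 12.3 and 13.7 CPM and did not pass.

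The immunoproteasome and peptide transport genes fell in all 3 cases, against 29.7% of all genes. Psmb9 and Psmb8 are catalytic subunits that replace their constitutive partners, and Tap1 carries peptides to MHC class I. They lie side by side on chromosome 17, and Psmb9 (chr17:34181987-34187764) overlaps Tap1 (chr17:34187553-34197225) on the opposite strand, so reads of the overlap could not be told apart unless strand was used. Psmb9 was at 10.0 and 18.6 CPM in normal and at 4.06 and 4.36 CPM in ischemic sections, a log2 fold change of -1.75 (SE 0.27, edgeR adjusted p = 0.000428). Psmb8 was at 31.6 and 45.2 against 19.3 and 19.4 CPM, a log2 fold change of -0.99 (SE 0.15). Tap1 fell by 0.51 on the log2 scale, and was not past the threshold without ischemic section 1 (edgeR adjusted p = 0.0927). For Psmb9 and Psmb8 the normal sections stood above the ischemic ones with a wide gap.

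The 2 chemokines that bind CXCR3 and draw activated T cells, Cxcl9 and Cxcl10, are adjacent on chromosome 5 and moved apart. Cxcl9 (chr5:92321347-92328079) had 218 and 329 counts in the normal sections and 2 and 1 counts in the ischemic sections. Summed per condition, its normal level was 177 times the ischemic level (95% interval 60.3 to 861, counting error only; fitted log2 fold change -7.41, SE 0.58). Cxcl10 (chr5:92346638-92348889) was at 12.8 and 16.7 CPM in normal and at 19.89 and 19.99 CPM in ischemic sections, a log2 fold change of 0.44 (SE 0.13, edgeR adjusted p = 0.0156). The Cxcl10 call did not hold without ischemic section 1 (edgeR adjusted p = 0.0524) or ischemic section 2 (edgeR adjusted p = 0.0603). Restricted to spots of the cortex and both stripes, its log2 fold change was -0.03.

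Lymphocyte-rich spots, defined by at least 5 counts of T and B cell markers in a spot and its neighbours, held a large share of the counts of some members. There were 392 and 350 such spots in normal sections and 0 and 4 in ischemic sections, and they held 14.4% and 14.7% of the UMIs of the normal sections. They held 60.1% and 78.4% of the Cxcl9 counts, 42.1% and 54.9% of the Gbp2 counts and 36.9% and 48.6% of the Cxcl10 counts. Rsad2 was at the other end, with 14.22% and 15.03%, close to the share of UMIs. Over the 37 members the median share was 22.1% and 27.0%.

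**Figure D2:**
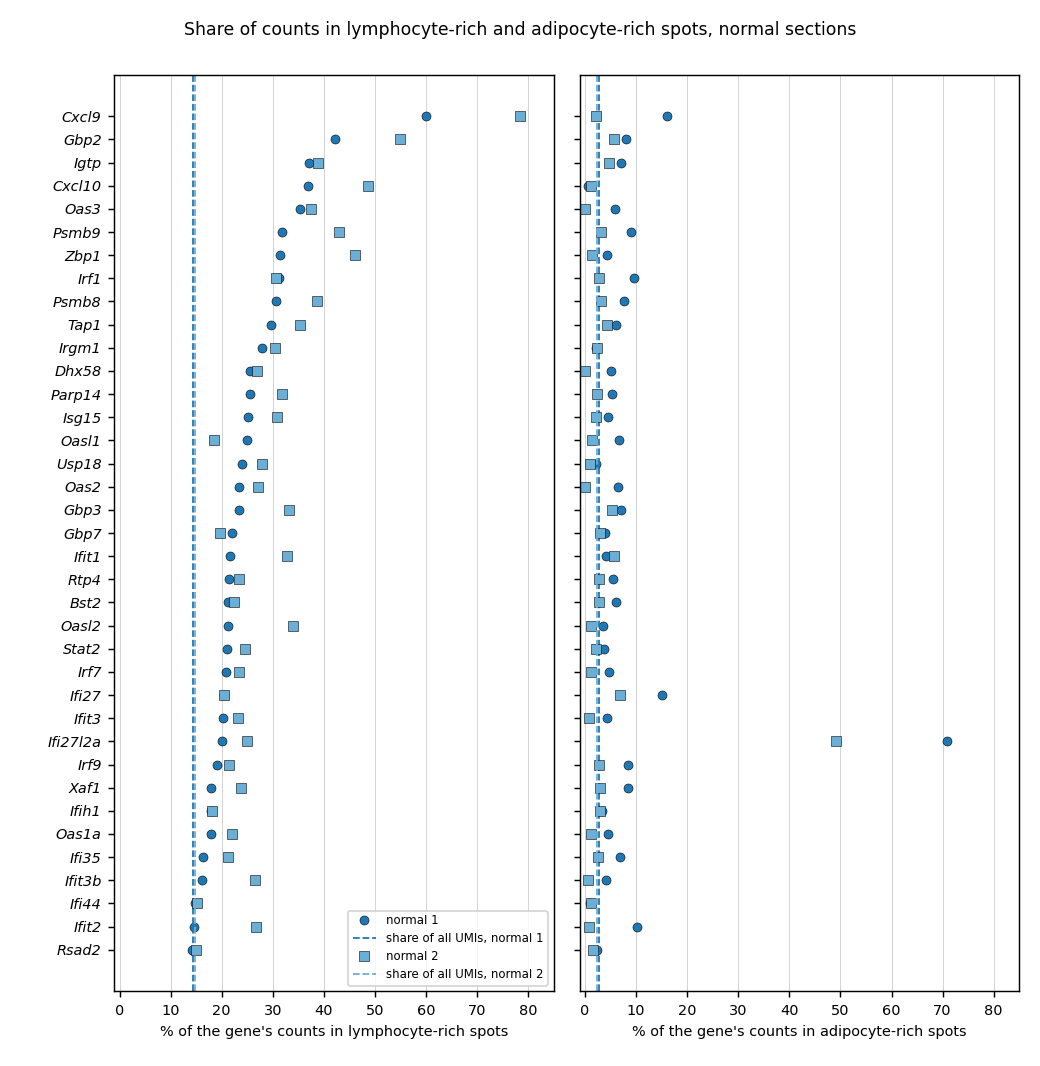
Percent of each member's counts that lay in lymphocyte-rich spots (left) and adipocyte-rich spots (right) of the 2 normal sections; dashed lines mark the percent of all UMIs in those spots. Cxcl9 reached 60.1% and 78.4% on the left and Ifi27l2a 71.0% and 49.1% on the right, while Rsad2 stayed near the dashed lines in both.

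Taking these spots out changed the balance of the calls. Without lymphocyte-rich spots 10 members rose and 8 fell, with 33.0% of all genes higher and 30.8% lower. All 5 risers were kept, and Oasl2, Oas2, Stat2, Irf1 and Ifi35 joined them. Zbp1, Gbp3, Gbp7 and Tap1 were no longer past the threshold. Gbp2 was at a log2 fold change of -0.44, against -1.18 with these spots, and Igtp was at -1.43. Cxcl10 was at 1.014 (edgeR adjusted p = 1.06e-05), against 0.44 with them. Leaving out adipocyte-rich spots as well gave the same counts of 10 and 8.

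Other genes of the interferon system were measured with lists chosen by name. Of 73 tested, 26 rose and 16 fell, where 31.0% of all genes rose and 29.7% fell. Of 11 interferon ligands, 10 had 0 counts in all 4 sections, including Ifnb1. Ifng was the exception, with 9 and 9 counts in the normal and 0 and 0 in the ischemic sections, which was at least 5.83-fold higher in normal sections when the ischemic sections were set at 3 counts in all. These transcripts were therefore at or near the floor of the assay. Receptors rose in 4 of 6 cases: Ifngr2 by a log2 fold change of 1.49, Ifnar1 by 1.12, Ifngr1 by 0.55 and Ifnar2 by 0.28, while Ifnlr1 (0.47) and Il10rb (0.14) did not pass. Of the kinases that transduce the signal, Jak1 (0.61) and Jak2 (0.49) rose and Tyk2 (0.25) did not pass. Among negative regulators, Socs3, an inhibitor of cytokine receptor signalling, rose most, from 1.27 and 2.93 to 54.7 and 52.7 CPM (log2 fold change 4.73). The phosphatases Ptpn2 (0.81), Ptpn1 (0.58) and Ptpn11 (0.55) also rose, and Socs1 (-0.31) and Pias1 (-0.27) did not pass.

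Sensing adaptors rose in 6 of 12 tested cases and the other 6 did not pass, with the largest changes in Tmem173 (STING, log2 fold change 2.68) and Cgas (1.495). Of the 6 other IRF factors, Irf2 (0.51) rose and Irf5 (-1.43) and Irf4 (-1.19) fell. In MHC class I presentation 1 of 9 rose and 4 fell, among them the class I transactivator Nlrc5 (-1.28) and the heavy chain H2-K1 (-0.45). Of 30 other interferon-induced genes tested, 8 rose and 9 fell, shares close to the 31.0% and 29.7% of all genes. The extremes were Lgals3bp (0.93) and Ifitm3 (0.89) upward and Gbp6 (-2.64) and Ifi47 (-1.71) downward. Of the GTPases on that list, Gbp4, Gbp5, Gbp6, Irgm2 and Ifi47 fell, where 29.7% of all genes fell. Values of Gbp8, Gbp9, Tgtp1 and Tgtp2, also on it, are not given here.

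For position in the kidney, spots were assigned to cortex, outer stripe, inner stripe, inner medulla or pelvis from tubule and urothelial markers, none of them a member. The inner medulla zone differed in content between conditions. It held 139 and 240 spots in normal and 314 and 330 spots in ischemic sections. In the normal sections its adipocyte markers were at 531 and 77.5 CPM and its hemoglobin genes at 49948 and 16009 CPM, against 1.09 and 0.786 CPM and 530 and 892 CPM in the ischemic sections. Of the normal inner medulla spots 58 and 21 were adipocyte-rich, and the calls there were also made without them. Counts were summed per section and zone and fitted together for 14001 genes, among them 36 members, with Oas3 removed as too low.

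Most members were higher toward the inner medulla, in both conditions. In normal sections 22 of 36 members were higher in the inner medulla than in the cortex and 0 lower, against 19.8% and 20.4% of all genes, 40.2% in either direction. Without adipocyte-rich spots the counts were 23 and 0. In ischemic sections 29 members were higher and 0 lower, against 21.9% and 26.1% of all genes (in both conditions 0 were lower at an unadjusted p under 0.05 in edgeR, and 0 at an adjusted p under 0.05 in DESeq2). The median log2 difference of the members was 1.011 in normal and 1.13 in ischemic sections, against 0.03 and 0.01 over all genes. Leaving the pelvis aside, the zone with the highest CPM was the inner medulla for 20 and 19 members and the inner stripe for 17 and 17 members in normal sections 1 and 2. In both normal sections it was the inner medulla for 13 members and the inner stripe for 10. It was the inner medulla for 23 and 27 members in ischemic sections 1 and 2, and for 20 in both. The outer stripe differed less from the cortex, with 5 members higher in normal and 6 in ischemic sections, against 12.9% and 17.3% of all genes higher and 10.4% and 19.6% lower. In normal sections these were Cxcl9, Psmb9, Gbp7, Ifi35 and Psmb8, and without lymphocyte-rich spots none of these 5 passed, with edgeR adjusted p from 0.0646 for Ifi35 to 0.792 for Cxcl9.

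In ischemic sections Ifit3b and Ifit3 had the largest differences between inner medulla and cortex among the members. Ifit3 was at 8.42 and 6.88 CPM in the cortex, 13.0 and 17.2 in the outer stripe, 84.5 and 66.7 across the inner stripe, then 83.6 and 102 in the inner medulla. Its inner medulla level exceeded that of the cortex by 3.58 on the log2 scale (SE 0.22, edgeR adjusted p = 8.36e-11), and that of Ifit3b by 3.88. In normal sections Ifit3 went from 8.84 and 8.66 CPM in the cortex to 33.8 and 63.7 CPM in the inner medulla, a log2 difference of 2.41. The normal inner stripe held 31.2% and 36.3% of the Ifit3 counts, in 5631067 and 2558149 UMIs. The normal inner medulla held 8.19% and 19.3%, in 1172364 and 1523182 UMIs. Next in ischemic sections came Cxcl10 (3.14), Oas2 (3.02) and Dhx58 (2.08), whereas in normal sections Ifi27l2a (3.17, or 1.19 without adipocyte-rich spots) and Cxcl9 (2.82, not past the threshold without lymphocyte-rich spots) came before Ifit3b (2.57) and Ifit3, with Gbp2 (1.71) after them. Without adipocyte-rich spots the normal differences were 2.69 for Ifit3, 2.76 for Cxcl9 and 1.70 for Gbp2.

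**Figure D3:**
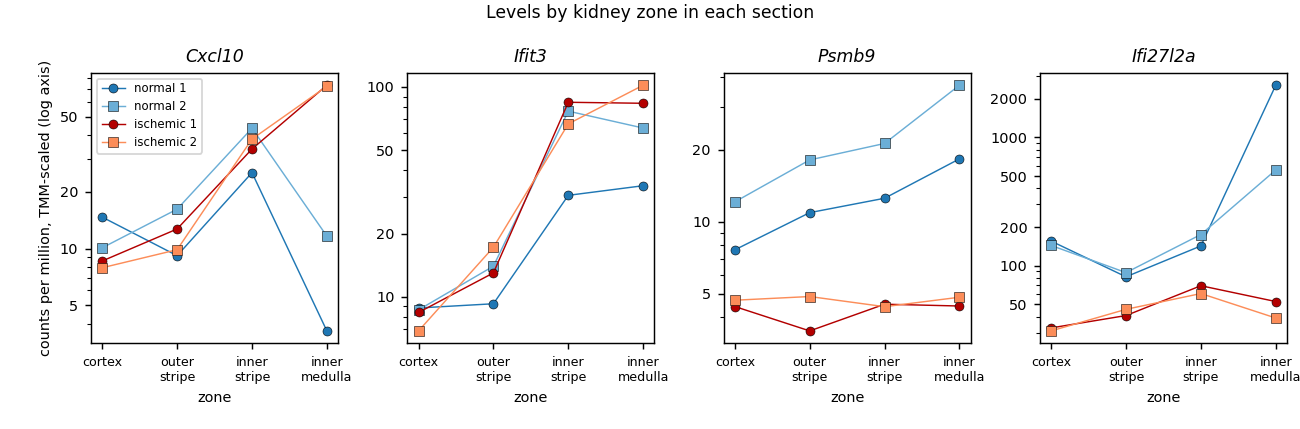
TMM-scaled counts per 1e+06 (log axis) of Cxcl10, Ifit3, Psmb9 and Ifi27l2a in 4 kidney zones, 1 line per section. Cxcl10 parts in the inner medulla, at 73.5 and 72.5 CPM in ischemic and 3.66 and 11.6 CPM in normal sections, while Psmb9 stays between 3.50 and 4.87 CPM in every zone of the ischemic sections.

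The largest zone-specific change was that of Cxcl10 in the inner medulla. There it was at 3.66 and 11.6 CPM in normal sections (4 and 21 counts) and at 73.5 and 72.5 CPM in ischemic sections (248 and 225 counts). Its log2 fold change was 3.09 (SE 0.48, edgeR adjusted p = 4.83e-05), and 2.96 without adipocyte-rich spots. In the cortex it was at 14.7 and 10.1 against 8.59 and 7.91 CPM, which did not pass. The difference between the changes in inner medulla and cortex was itself past the threshold (log2 difference 3.82, SE 0.52, edgeR adjusted p = 3.13e-05), and remained so without adipocyte-rich spots (3.74) and without lymphocyte-rich spots (4.59). Injury markers in the ischemic inner medulla were at 17650 and 19890 CPM, against 235 and 312 CPM in the normal one. In the ischemic inner stripe, where Cxcl10 was not called, they were at 14864 and 15847 CPM, against 52.7 and 80.5 CPM in the normal one. A relation of Cxcl10 to these markers was not tested.

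The inner medulla called 3 members higher and 7 lower, against 14.5% and 22.2% of all genes. Oasl2 (log2 fold change 1.07, edgeR adjusted p = 0.0403) and Ifit3 (0.86, edgeR adjusted p = 0.0479) rose beside Cxcl10, and neither passed without adipocyte-rich spots (edgeR adjusted p = 0.0742 and 0.192), nor Ifit3 without lymphocyte-rich spots (0.0753). Psmb9 fell from 18.3 and 37.1 CPM to 4.44 and 4.84 CPM (log2 fold change -2.66, and -2.62 without adipocyte-rich spots). Ifi27l2a went from 2557 and 558 CPM to 52.4 and 39.01 CPM, a log2 fold change of -5.08 that was -1.68 without adipocyte-rich spots. Cxcl9 had 19 and 50 counts in the normal and 0 in each ischemic inner medulla, at least 51.4-fold higher in normal sections when the ischemic sections were set at 3 counts in all. All 7 members that fell also passed without adipocyte-rich spots. T cell markers in this zone were at 31.6 and 106 CPM in normal and at 5.08 and 3.14 CPM in ischemic sections. Igtp (-1.69), Psmb8 (-1.11), Tap1 (-0.95) and Gbp2 (-1.28) fell too, and Gbp2 did not pass without lymphocyte-rich spots (edgeR adjusted p = 0.345).

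Beyond Cxcl10, the change in the inner medulla differed from that in the cortex for 5 more members, 2 higher and 3 lower. With Cxcl10 this made 3 higher and 3 lower, against 3.56% and 11.1% of all genes. They were Ifit3 (log2 difference 1.17) and Isg15 (0.92) upward and Ifi27l2a (-2.65), Psmb9 (-1.47) and Tap1 (-0.71) downward. Without adipocyte-rich spots Psmb9 (-1.40, edgeR adjusted p = 0.0213) was the only one of these 5 past the threshold, with Isg15 at an edgeR adjusted p of 0.052. Without lymphocyte-rich spots Psmb9 (edgeR adjusted p = 0.129), Ifit3 (0.0631) and Tap1 (0.375) were not past it. Between outer stripe and cortex Tap1 alone differed (log2 difference -0.59, edgeR adjusted p = 0.0318), against 8.24% of all genes higher and 13.9% lower, and this call did not hold without adipocyte-rich spots (edgeR adjusted p = 0.0765) or lymphocyte-rich spots (0.288). Psmb9, Ifi27l2a, Ifit3b and Gbp3, next in order there, did not pass.

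Gbp2, Cxcl9, Irf7, Igtp, Rsad2, Psmb9 and Psmb8 fell in the cortex and in both stripes. Of these only Irf7 and Rsad2 were not called in the inner medulla. The cortex had 1 member that rose and 9 that fell, where 20.8% of all genes rose, 19.9% fell and 40.7% did either. The outer stripe had 1 and 9 (27.9% and 29.7% of all genes), and the inner stripe 3 and 10 (22.6% and 25.6%). In these zones 27.8%, 27.8% and 36.1% of members were called in either direction, below the 40.7%, 57.6% and 48.2% of all genes. The log2 fold change of Igtp was -1.92 in cortex, -2.10 in outer stripe and -1.59 in inner stripe spots. In the same order that of Rsad2 was -1.36, -1.197 and -1.13, and that of Irf7 was -0.69, -0.90 and -1.31. Cxcl9 was 62.0 times higher in normal than in ischemic cortex (95% interval 10.8 to 2479, counting error only) and 61.4 times higher in the outer stripe (16.6 to 513), with 1 and 2 ischemic counts. In the inner stripe it was at least 35.2-fold higher in normal sections, with 82 counts against 0. Psmb9 was at 10.9 and 18.1 against 3.50 and 4.87 CPM in the outer stripe (log2 fold change -1.78), Gbp3 fell in the cortex (-1.34), and Gbp2 in the inner stripe (-1.56). The Gbp2 call there did not hold without lymphocyte-rich spots (log2 fold change -0.72, edgeR adjusted p = 0.0554). In the cortex Ifi27l2a was at 155 and 144 against 32.7 and 30.9 CPM, a log2 fold change of -2.23 that was -1.04 without adipocyte-rich spots.

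Rises were few in every zone: 1 in the cortex, 1 in the outer stripe, and 3 each in the inner stripe and the inner medulla. Oasl1 rose in the cortex, from 1.67 and 2.38 to 3.91 and 4.93 CPM (log2 fold change 1.14, edgeR adjusted p = 0.0123). It likewise rose in outer stripe spots (0.93, edgeR adjusted p = 0.0362), where DESeq2 called 0 members higher. Inner stripe rises were those of Ifit3b (0.85, edgeR adjusted p = 0.0284), Irf9 (0.72, 0.00749) and Stat2 (0.61, 0.0117). With zones set without neighbours, or in a separate fit of the inner stripe, only 1 member rose there. Isg15 fell there, from 37.8 and 69.9 to 24.7 and 26.3 CPM (log2 fold change -1.04), while in the inner medulla it was at 28.3 and 41.5 against 45.9 and 50.6 CPM, a difference that did not pass. T cell markers were at 26.5 and 35.6 CPM in the normal inner stripe and at 5.71 and 7.51 CPM in the ischemic one.

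**Figure D4:**
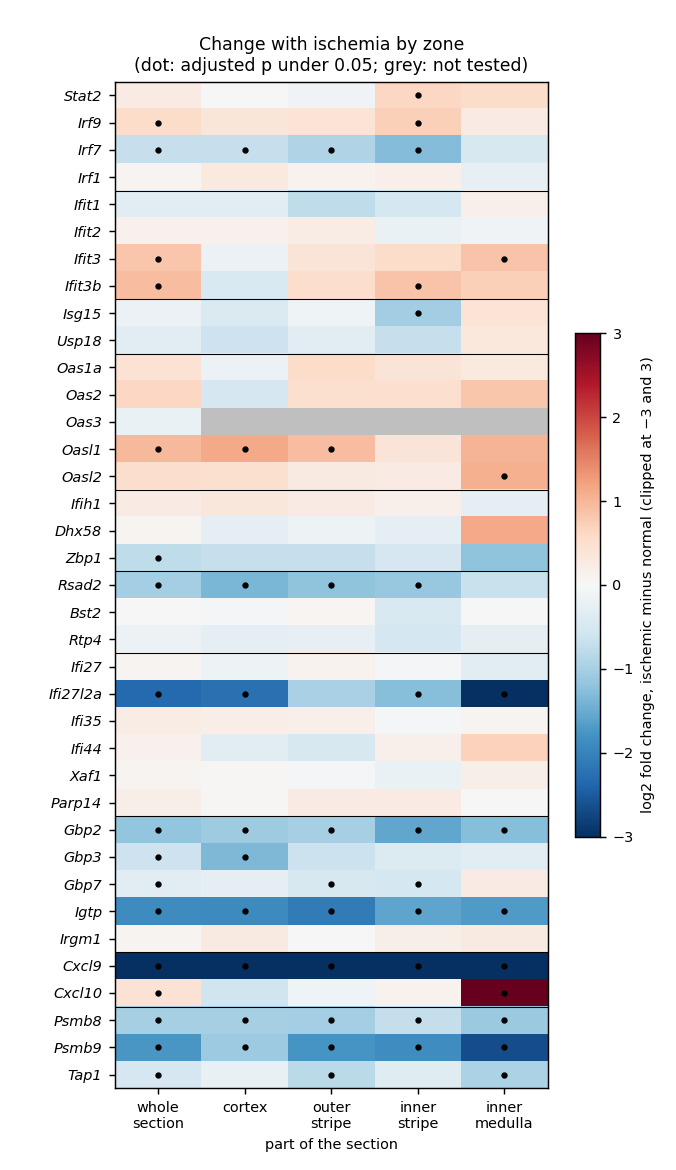
Log2 fold change, ischemic minus normal, of the 37 members (rows, grouped by role) over the whole section and in 4 zones (columns), with colour clipped at −3 and 3 and a dot where the adjusted p was under 0.05. Igtp, Gbp2, Cxcl9, Psmb8 and Psmb9 carry a dot in all 5 columns, and Cxcl10 is deep red in the inner medulla and pale elsewhere.

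At the level of single spots Cxcl10 was less concentrated in the ischemic sections. In normal sections it had a UMI in 187 and 181 spots (7.15% and 6.75%), and in ischemic sections in 357 and 307 spots (14.9%, 95% Clopper-Pearson interval 13.5 to 16.4, and 11.7%, 10.5 to 13.0). After thinning each spot to 2000 UMIs the shares were 1.79% and 2.09% against 4.23% and 4.23%, leaving out 48, 150, 58 and 105 shallower spots. The 5% of spots with the highest level over a spot and its neighbours held 57.8% and 58.8% of its counts in normal and 37.1% and 39.3% in ischemic sections. In normal sections 48.3% and 23.0% of Cxcl10 counts lay in the cortex and 0.844% and 4.56% in the inner medulla. In ischemic sections 14.9% and 12.0% lay in the cortex and 36.7% and 39.3% in the inner medulla.

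Cxcl9 was focal in the sections that had it. It had a UMI in 108 and 133 spots of the normal sections and in 2 and 1 spots of the ischemic sections, never more than 1 count in the latter. The top 5% of spots held 67.4% and 78.4% of its counts in normal sections. Cxcl9 and Cxcl10 were both present in 29 and 45 normal spots. Of Cxcl9 spots, 53.7% and 71.4% had Cxcl10 in the spot or a neighbour, against 35.9% and 32.5% of all spots.

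**Figure D5:**
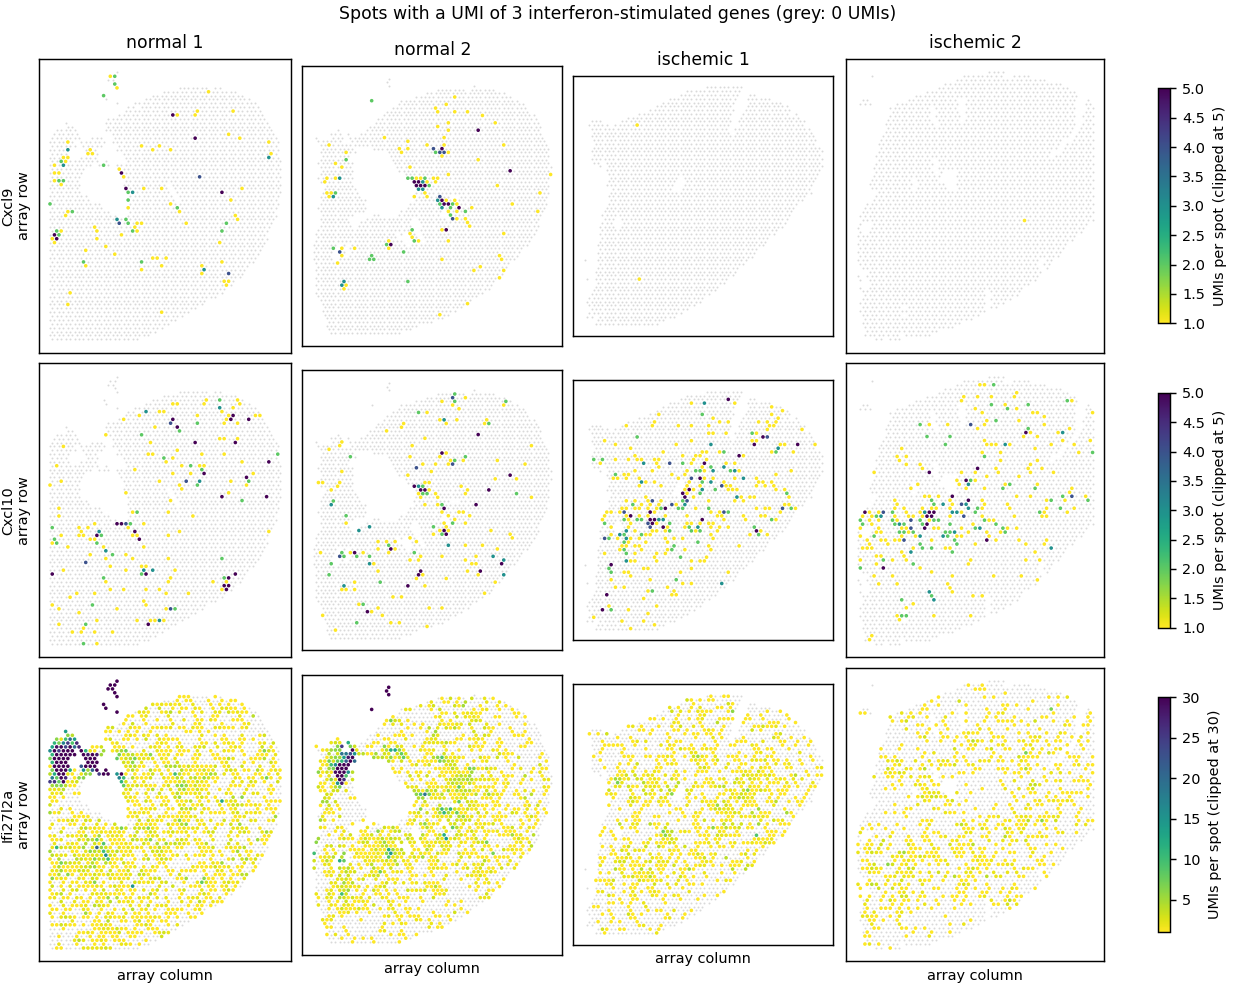
Spots of the 4 sections coloured by UMIs of Cxcl9, Cxcl10 (clipped at 5) and Ifi27l2a (clipped at 30), on the array's row and column positions, with spots at 0 in grey. Cxcl9 forms clusters in both normal sections and is present in 2 and 1 spots of the ischemic sections; Cxcl10 spreads over a central field after ischemia; Ifi27l2a is dense in a patch at the edge of the normal sections.

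As a description without a test, the level of each member over a spot and its neighbours was ranked against those of cell marker lists across the spots of a section. Spots of a section share a library and neighbouring spots share counts. Only members and lists with at least 100 counts in a section were ranked. T cell (86 and 81 counts), B cell and NK cell markers were thus left out in the ischemic sections. Neutrophil markers (63 and 60 counts) were left out in the normal sections. The closest list was therefore sought among different lists in normal and ischemic sections. Cxcl9 was closest to T cell markers (Spearman rho 0.31 over 2616 spots of normal section 1 and 0.35 over 2682 spots of normal section 2). Cxcl10 stood at 0.28 with T cell markers in normal section 1 and at 0.25 with dendritic cell markers in normal section 2. Of the 387 counts of the dendritic cell list there, Zbtb46 alone held 199. In both ischemic sections Cxcl10 was closest to injured tubule markers among the lists ranked (0.50 over 2401 spots and 0.41 over 2613 spots). Ifit3 was closest to macrophage and monocyte markers in normal sections (0.26 and 0.39), to endothelium in ischemic section 1 (0.67) and to injured tubule in ischemic section 2 (0.63). Macrophage and monocyte markers were the closest list for 14 of 31 members in normal section 1 and 23 of 32 in normal section 2, against 2 of 32 and 2 of 30 in the ischemic sections. The closest list in ischemic section 1 was endothelium for 20 members and in ischemic section 2 injured tubule for 22, so the ischemic sections differed in this respect.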

How the data were processed

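Conditions came from the sample labels. The authors ran Space Ranger (1.3.0 per the file headers, mm10 per the labels) and deposited a raw UMI count for each gene in each spot, not normalized. Counts were summed for the tissue spots of each section, or of each of its zones that had 20 spots or more, and tested with edgeR 4.0.16 in R 4.3.3 (TMM, filterByExpr, quasi-likelihood test, Benjamini-Hochberg over all genes tested, threshold 0.05). Zone changes came from 1 model in which every pair of condition and zone was a group. Differences between zones had a section block. Zones came from marker lists scored over a spot and up to 6 neighbours, with pelvis at 10 or more counts and in the top 5%. Fold changes are ischemic over normal. Coordinates are from GENCODE M21 (GRCm38). Intervals are at 95%. Alternatives included DESeq2 1.42.0, other scaling and filters, other zones and sections left out. Removal of lymphocyte-rich or adipocyte-rich spots per zone, and of both together, and the restriction to cortex and stripes were chosen after seeing the data. The fits were tested on simulated data. Members and lists were chosen with earlier results of these data known. Values per section were given for members past the threshold without overlap (up to 6 rises, of which there were 5, and the 6 largest falls), the 3 most abundant members not past the threshold, and Cxcl9 and Cxcl10. In zones up to 5 members per direction were named, and the 5 with the smallest p for differences between zones. Irf7, Ifit3b, Psmb8, Irgm1 and the other members given with values were named beside them by role. Of the 4 transducers tested, 1 is not reported here.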

Additional observations from a re-analysis of the deposited data

Results flagged for a closer look

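In 7 cases the change with ischemia in 1 kidney zone differed from that in the cortex by a test of the difference itself (edgeR, adjusted over 14001 genes). For the inner medulla against the cortex the log2 differences were 3.82 for Cxcl10, 1.17 for Ifit3, 0.92 for Isg15, -2.65 for Ifi27l2a, -1.47 for Psmb9 and -0.71 for Tap1. For the outer stripe against the cortex it was -0.59 for Tap1. In the inner medulla test 16.7% of members were called, close to the 14.7% of all genes. In the outer stripe test 2.78% of members were called, below the 22.1% of all genes. Cxcl10 was past the threshold under every alternative run, including without each section in turn. The normal inner medulla zone held adipocyte-rich spots (58 and 21) that the ischemic one did not, and without them Ifi27l2a was at -0.59, Ifit3 at 0.95, Isg15 at 0.84 and Tap1 at -0.48, none past the threshold.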

How the results depend on the processing

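Over whole sections, 5 members higher became 10 without lymphocyte-rich spots, 10 without these and adipocyte-rich spots, and 9 without pelvis spots, and ranged from 4 to 15 with 1 section left out, while 12 lower ranged from 8 to 18. Leaving a section out leaves 1 section in an arm, assumed to vary like the others. DESeq2 gave 4 higher and 11 lower. The replicate number as a block gave 7 higher and 12 lower, including the 5 and the 12. The sections shared only that number (r = 0.15 over 15305 genes for the difference between numbers).

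With 1 section left out, higher and lower counts ranged from 0 to 4 and 5 to 11 in the cortex, from 0 to 5 (higher) in the outer stripe, from 0 to 6 and 6 to 12 in the inner stripe, and from 1 to 7 (higher) in the inner medulla. In the outer stripe 1 higher became 0 with DESeq2, 3 with no filter, 2 without spots near a zone boundary, 3 without lymphocyte-rich spots, 2 without adipocyte-rich spots and 2 in a separate fit. In the inner stripe 3 higher became 1 with zones set without neighbours, 5 without lymphocyte-rich spots and 1 in a separate fit, and 10 lower became 6 without lymphocyte-rich spots. In the inner medulla 3 higher became 5 with no filter, 5 without neighbours, 5 without boundary spots, 1 with Cryab added as a marker and 1 without adipocyte-rich spots.

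For the change in the outer stripe against the cortex, 1 lower became 0 with DESeq2, RLE scaling, no filter, no neighbours, no section block, and without lymphocyte-rich or adipocyte-rich spots, and 2 without boundary spots (0 to 1 with 1 section left out). There 0 higher became 4 with no filter and 1 with no neighbours (0 to 4). For the inner medulla, 3 higher became 6 with no filter and 1 with no block (1 to 6), and 3 lower became 1 with no neighbours, no block, and without lymphocyte-rich or adipocyte-rich spots (0 to 2).

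Within normal sections, 5 members higher in outer stripe became 1 with DESeq2, 0 without lymphocyte-rich spots and 0 with no block (1 to 7), and 0 lower became 2 with no filter and 1 with no neighbours (0 to 3). In the inner medulla 0 lower became 1 with no filter (0 to 1). Within ischemic sections, 6 higher in outer stripe became 10 with no filter, 11 without adipocyte-rich spots and 3 with no block (0 to 12), and 0 lower ranged from 0 to 2. In the inner medulla 0 lower became 1 with no neighbours.

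Among single members 1068 values kept direction and side of the threshold, 41 gained and 150 lost it, and 26 changed sign. Bst2 changed sign with no filter (0.0067), and without pelvis (0.028), lymphocyte-rich (0.092) or both rich kinds of spots (0.098). Isg15 did so without lymphocyte-rich (0.053) or both kinds (0.062), and Oas3 without them (0.20 and 0.16). In cortex and stripes alone Oas3 was at 0.10, Dhx58 at -0.14, Ifi44 at -0.12 and Cxcl10 at -0.031. With 1 section left out, log2 fold changes on both sides of 0 ranged from -0.14 to 0.32 for Irf1, -0.28 to 0.61 for Ifit2, -0.38 to 0.021 for Isg15, -0.54 to 0.050 for Oas3, -0.20 to 0.37 for Dhx58, -0.19 to 0.15 for Bst2, -0.38 to 0.0094 for Rtp4, -0.32 to 0.56 for Xaf1, -0.17 to 0.54 for Parp14 and -0.26 to 0.49 for Irgm1. The cause was not tested.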
